A study of Xenopus laevis with 8 samples.

Results

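The 14 genes described here are tied to maternal RNA in the egg and the germ line of Xenopus laevis, the African clawed frog. They encode proteins that store, repress, localize or turn over such RNA, or have RNA of their own that is localized in the egg. They are every gene ID whose symbol in the authors' table, without the ending .L or .S, is zar1, zar1l, cpeb1, dazl, dnd1, nanos1, ddx25, velo1, grip2 or trim36, which gives 14 of the 51017 gene IDs counted. This frog is an allotetraploid whose chromosomes come in a long (L) and a short (S) set, and the endings say on which set a copy lies. Both copies are listed for zar1, zar1l, cpeb1 and trim36. All 14 IDs passed the filter on low counts with 28490 genes in all. nanos1.L was over the filter's cutoff of 0.264 CPM in only 3 libraries, and stage 9 was the only stage with both libraries over it. For that gene, then, the filter itself required a stage that was high.

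Animal caps, the ectodermal tissue at the pigmented pole of the blastula, were cut from wild type embryos at stage 8. The explants were cultured without any treatment and collected at stage 9, 10.5, 11.5 or 12.5, the span from late blastula to late gastrula. All groups share the genotype wild type and the treatment control, so by their labels the groups differ in stage alone. Each stage has 1 library whose title begins with ExpA and 1 with ExpB, called replicates A and B here, which makes 8 libraries in 4 groups of 2. The labels do not say whether the letters stand for separate clutches, so p-values measure the spread between these libraries.

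In frog oocytes many mRNAs are kept silent with short poly-A tails until the egg matures. CPEB1 binds such mRNAs at U-rich elements near their ends and, with its partners, first holds the tail short and later lets it be lengthened, while the Zar proteins bind maternal mRNAs and restrain their translation. Most of the other genes belong to the germ plasm, a body of RNA, protein and mitochondria at the vegetal pole that sets aside the germ cells and lies opposite the tissue sampled here. At the mid-blastula transition the embryo begins to transcribe its own genome and clears much of the maternal RNA, and the stages sampled follow that transition.

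The libraries held between 33170889 and 45511790 counts, and 3 counts corresponded to between 0.0604 and 0.098 CPM, a floor that covers counting error only. A level in CPM is the count a gene would have if its library, after scaling with TMM factors, held 1e+06 counts. The factors ranged from 0.818 to 1.12, and every level is relative to the rest of the library. Summed over 17 gene IDs of ectoderm markers, the level was 1840 and 1760 CPM in replicates A and B at stage 9 and 12000 and 9110 CPM at stage 12.5. Over that span edgeR called 14 of 16 tested IDs higher and 1 lower (adjusted p under 0.05). These were 87.5% and 6.25%, where 31.9% of all tested genes were called higher and 28.9% lower. dlx3.L and krt18 (gene200), both called higher, lay under the filter's cutoff at stage 9 and passed it through later stages. Summed over 10 gene IDs of mesoderm and endoderm markers the level lay between 10.2 and 50 CPM in the 8 libraries. That sum was higher in A than in B at stage 9, at 40.8 and 27.2 CPM. At later stages it was higher in B, at 19.7 and 50, then 10.2 and 19.1, then 10.9 and 17.9 CPM in A and B. In bulk RNA, fewer cells that hold a transcript cannot be told apart from less transcript per cell. RNA was selected by its poly-A tail, and loss of an RNA cannot be told apart from loss of its tail. Reads were counted without strand as far as the labels show, and how reads shared by near-identical copies were assigned is not given in the sources used here, so the split between L and S copies and the values of antisense partners are uncertain.

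Between stage 9 and stage 10.5 these genes moved both ways. Both copies of cpeb1, both copies of zar1l, velo1.L, grip2.L and dnd1.L fell, dazl.L and trim36.S rose, and zar1.L, zar1.S, ddx25.L, trim36.L and nanos1.L did not pass the test. That is 7 of 14 lower and 2 of 14 higher, where 23.3% of all tested genes were called lower and 25.0% higher (edgeR's quasi-likelihood test, Benjamini-Hochberg adjusted p under 0.05). The median log2 fold change of the 14 genes was -1.4, and that of all tested genes was 0.11. The same 9 genes have an adjusted p under the threshold in the authors' deposited table for this step, with the same directions. That table calls 13583 genes in all and comes from the same series, so it is not independent support. From stage 9 to stage 12.5, again 7 were called lower and 2 higher, with 28.9% of all tested genes lower and 31.9% higher. The median of the 14 was then -2.13 and that of all tested genes 0.13. Both medians of the 14 include nanos1.L, at -1.5 and -2.89, which passed the filter through stage 9 alone. They are therefore given as descriptions.

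**Figure D1:**
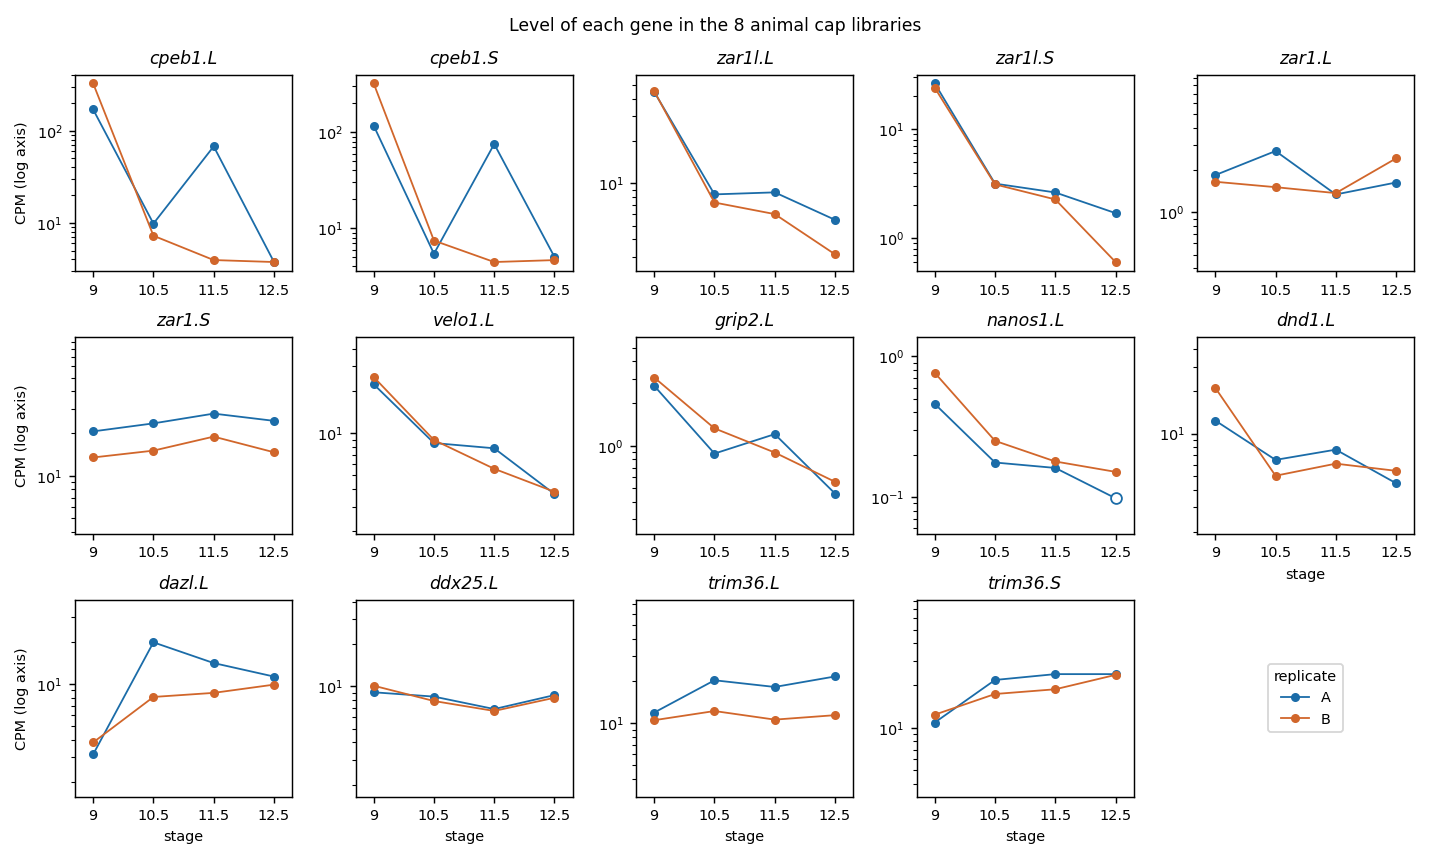
Level of each of the 14 genes in CPM (log axis, each panel with its own range) by stage, with a line for the libraries of each replicate letter, A and B. The open circle marks nanos1.L in stage 12.5 replicate A, which held 0 counts and is drawn at the floor of 0.098 CPM. The cpeb1 and zar1l panels drop from stage 9 to stage 10.5, and cpeb1.L and cpeb1.S stand at 67.6 and 75.4 CPM in stage 11.5 replicate A.

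Of the 14 genes, the cpeb1 copies had the largest fitted falls. cpeb1.L (gene13901) stood at 170 and 326 CPM in replicates A and B at stage 9, at 9.8 and 7.24 at stage 10.5, at 67.6 and 3.94 at stage 11.5, and at 3.76 and 3.75 at stage 12.5. cpeb1.S (gene9917) stood at 117 and 322 CPM at stage 9, at 5.43 and 7.44 at stage 10.5, at 75.4 and 4.45 at stage 11.5, and at 5.03 and 4.66 at stage 12.5. Both stage 9 libraries lay above all later libraries, and among the later libraries stage 11.5 replicate A stood far above the other 5. From stage 9 to stage 10.5 the log2 fold change was -4.87 ± 1.13 (SE) for cpeb1.L, with adjusted p = 0.0098, and -5.09 ± 1.20 for cpeb1.S, with adjusted p = 0.01 (edgeR's quasi-likelihood test, Benjamini-Hochberg). By stage 12.5 the fall was -6.05 ± 1.21 for cpeb1.L, a 66.0-fold lower level, and -5.50 ± 1.22 for cpeb1.S, a 45.3-fold lower level, with edgeR adjusted p = 0.0035 and 0.0059. Only 0.481% of all tested genes had a lower fold change than cpeb1.L over that span, and 0.713% a lower one than cpeb1.S.

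The level of cpeb1 in stage 11.5 replicate A has no counterpart in replicate B. There cpeb1.L had 2518 counts and cpeb1.S 2809, against 132 and 149 in stage 11.5 replicate B. On the log2 scale cpeb1.S was 3.78 above the higher of the neighbouring stages of replicate A, and cpeb1.L was 2.78 above it. A gap of over 3 on that scale was reached by 3 of 28490 tested genes in this library, and by 3 to 5 in each of the other 3 libraries of stages 10.5 and 11.5. Besides cpeb1.S, the genes past that gap in stage 11.5 replicate A stood at only 0.376 and 0.912 CPM there. Only 0.147% of tested genes exceeded the difference of cpeb1.L between A and B at stage 11.5, which was 4.08 on the log2 scale, and 0.151% exceeded that of cpeb1.S, 4.07. In the same pair of libraries all 7 genes called lower at stage 10.5 were higher in A than in B. The other 5 were higher by far less than cpeb1, as with zar1l.L at 8.61 and 6.03 CPM and velo1.L at 7.81 and 5.58 CPM. The risen dazl.L, at 14.1 and 8.65 CPM, and trim36.S, at 24.1 and 18.8 CPM, were also higher in A. So were zar1.S, trim36.L and ddx25.L, while zar1.L and nanos1.L were slightly lower in A. The share of all tested genes higher in A there was not counted. Stage 11.5 replicate B was itself unusual in that its most counted gene held 3.05% of all counts. In the other libraries the most counted gene held from 0.207% to 1.14%. The part of either library in the levels at stage 11.5 was not tested. Without stage 11.5 replicate A the falls to stage 10.5 were as large, -4.88 ± 0.37 for cpeb1.L and -5.10 ± 0.52 for cpeb1.S, with edgeR adjusted p = 2e-04 and 0.00051. Leaving out stage 10.5 replicate A or B raised the adjusted p of cpeb1.L for that step to 0.053 and 0.06, and that of cpeb1.S to 0.066 and 0.051, at fold changes between -4.65 and -5.33. Over the whole span to stage 12.5 both copies were called whichever library was left out, and the fold change of cpeb1.S was -4.63 without stage 9 replicate B.

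The zar1l genes encode a Zar1-like RNA-binding protein of the oocyte and egg, and both copies fell in both replicates. zar1l.L (gene3690) was at 44.7 and 45.2 CPM at stage 9, at 8.33 and 7.29 at stage 10.5, at 8.61 and 6.03 at stage 11.5, and at 5.49 and 3.12 at stage 12.5. zar1l.S (gene17428) was at 26.3 and 24 CPM at stage 9, at 3.17 and 3.12 at stage 10.5, at 2.63 and 2.27 at stage 11.5, and at 1.7 and 0.605 at stage 12.5. For both copies stage 9 lay above every later library, and both stage 12.5 libraries lay below every earlier one. The first step was -2.52 ± 0.31 on the log2 scale for zar1l.L and -3.0 ± 0.44 for zar1l.S, with edgeR adjusted p = 0.00053 and 0.0012. By stage 12.5, zar1l.L was 10.5-fold lower, at -3.39 ± 0.32 and edgeR adjusted p = 9e-05, and zar1l.S 22.0-fold lower, at -4.46 ± 0.48 and edgeR adjusted p = 0.00015. In percent of the stage 9 level of the same letter, zar1l.L retained 18.7 and 16.1 percent at stage 10.5 and later, by stage 12.5, 12.3 and 6.91 percent. For zar1l.S the retained percentages were 12.1 and 13 at stage 10.5 and, by stage 12.5, 6.47 and 2.52. Without stage 12.5 replicate A, the library that retained more, the change of zar1l.S by stage 12.5 was -5.38. Without stage 12.5 replicate B it was -3.89.

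The namesake genes of the family did not follow. zar1.S (gene8929), whose protein is named for the zygote arrest seen in mice without it, was at 20.7 and 13.5 CPM at stage 9, at 23.6 and 15.1 at stage 10.5, at 27.7 and 19 at stage 11.5, and at 24.6 and 14.7 at stage 12.5. zar1.L (gene5116) was at 1.84 and 1.65 CPM at stage 9, at 2.73 and 1.51 at stage 10.5, at 1.34 and 1.37 at stage 11.5, and at 1.63 and 2.42 at stage 12.5. For zar1.S all stages overlapped, and replicate A was above replicate B at every stage. For zar1.L both stage 11.5 libraries lay below all others, and the other stages overlapped. The log2 fold change from stage 9 to 12.5 was 0.20 ± 0.36 for zar1.S, with a 95% interval from -0.81 to 1.21, and 0.22 ± 0.44 for zar1.L, with an interval from -1 to 1.43. Neither passed the test, with edgeR adjusted p = 0.65 and 0.69, and both turned below 0 when libraries were scaled by their size alone, to -0.14 and -0.08. The intervals leave room for a change of either sign but not for falls the size of those of zar1l.

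Among the germ plasm genes, velo1.L fell in unequal steps, with fitted log2 changes of -1.44, -0.38 and -0.83 between successive stages. The last of these, to stage 12.5, and the one to stage 11.5 were not called on their own. Velo1 is the Xenopus counterpart of zebrafish Bucky ball and builds the matrix of the Balbiani body, the oocyte structure that gathers germ plasm. velo1.L (gene6175) was at 22.3 and 25.1 CPM at stage 9, at 8.51 and 8.94 at stage 10.5, at 7.81 and 5.58 at stage 11.5, and at 3.69 and 3.83 at stage 12.5. No stage overlapped with the one before it, and the replicates of stages 9, 10.5 and 12.5 were close to each other. The log2 fold change was -1.44 ± 0.23 to stage 10.5 and -2.65 ± 0.25 to stage 12.5, a 6.29-fold lower level, with edgeR adjusted p = 0.0019 and 7.8e-05. The part of that fall that came after stage 10.5 was itself called, at -1.21 ± 0.24 with edgeR adjusted p = 0.018.

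Grip2, a PDZ-domain scaffold protein whose RNA lies in the Xenopus germ plasm, behaved much like it at a lower count. grip2.L (gene3242) was at 2.67 and 3.06 CPM at stage 9, at 0.88 and 1.33 at stage 10.5, at 1.21 and 0.895 at stage 11.5, and at 0.457 and 0.554 at stage 12.5. Stage 9 was above all other libraries and stage 12.5 below all others, while stages 10.5 and 11.5 overlapped. Its fall to stage 12.5 was -2.49 ± 0.46 on the log2 scale, 5.63-fold, with edgeR adjusted p = 0.0023. The first step of grip2.L, -1.37 ± 0.43 with edgeR adjusted p = 0.033, lost its call when any 1 of the 6 libraries of stages 9, 10.5 and 11.5 was left out, with adjusted p from 0.053 to 0.19, the highest without stage 10.5 replicate A. Without the filter on low counts it was 0.072.

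Nanos1 is an RNA-binding repressor of translation that keeps germ cells from taking somatic fates. nanos1.L (gene9962) had 22 and 38 counts at stage 9, 10 or fewer in every later library and 0 in stage 12.5 replicate A. In CPM these were 0.46 and 0.765 at stage 9, then 0.176 and 0.251, then 0.161 and 0.179, and at stage 12.5 they were 0 and 0.151. Both stage 9 libraries were above all others. The fitted change from stage 9 to 12.5 was -2.89 ± 1.13 on the log2 scale, and at edgeR adjusted p = 0.058 it was not called in the model by stage. With the replicate letter as a block it was -3.01, with edgeR adjusted p = 0.023. Since nanos1.L passed the filter through stage 9 alone, the stage from which the fall is measured, these values are given as a description and the gene is not counted among those called lower.

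Dnd1, which in zebrafish shields germ cell mRNAs from microRNAs, fell at the first step. dnd1.L (gene36550) was at 12.4 and 21.2 CPM at stage 9, at 6.51 and 5.02 at stage 10.5, at 7.7 and 6.12 at stage 11.5, and at 4.44 and 5.44 at stage 12.5. Stage 9 stood above all later libraries. Stage 10.5 overlapped with both later stages, and both stage 11.5 libraries lay above both of stage 12.5. The log2 fold change was -1.54 ± 0.33 to stage 10.5 and -1.76 ± 0.33 to stage 12.5, with edgeR adjusted p = 0.0066 and 0.0026. Without stage 10.5 replicate B the first of these was -1.36, with edgeR adjusted p = 0.051.

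dazl.L moved the other way. Dazl is a germ cell protein that binds mRNA ends and promotes translation, and its Xenopus RNA lies in the germ plasm. dazl.L (gene8655) was at 3.16 and 3.84 CPM at stage 9, at 19.8 and 8.09 at stage 10.5, at 14.1 and 8.65 at stage 11.5, and at 11.3 and 9.9 at stage 12.5. Both stage 9 libraries were below all 6 later libraries, and replicate A was above replicate B at each later stage. The rise to stage 10.5 was 1.99 ± 0.45 on the log2 scale, 3.98-fold, with edgeR adjusted p = 0.0086, and that to stage 12.5 was 1.60 ± 0.44 with edgeR adjusted p = 0.016. Without stage 10.5 replicate A the first rise was 1.20, with edgeR adjusted p = 0.055. Without stage 9 replicate A or stage 12.5 replicate A the second was 1.43 and 1.48, with edgeR adjusted p = 0.081 and 0.065.

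Ddx25, a DEAD-box RNA helicase whose Xenopus RNA, DEADSouth, is a germ plasm component, passed the test in none of the comparisons of stages. ddx25.L (gene11519) was at 9.07 and 10.1 CPM at stage 9, at 8.45 and 7.86 at stage 10.5, at 6.89 and 6.68 at stage 11.5, and at 8.66 and 8.29 at stage 12.5. Stage 9 was the highest and stage 11.5 the lowest of the 4 stages in both letters. From stage 9 to 12.5 the log2 fold change was -0.18 ± 0.21, with a 95% interval from -0.77 to 0.41 and edgeR adjusted p = 0.49. Summed over 9 gene IDs of germ cell and germ plasm markers, 5 of them among the genes described here, the level was 119 and 122 CPM at stage 9 and 173 and 214 CPM at stage 12.5, most of it from ddx4.L, the vasa helicase gene, at 72.8 and 73.2 and then 145 and 188 CPM. From stage 9 to 12.5 edgeR called 2 of the 9 higher, ddx4.L and dazl.L, and 3 lower, velo1.L, grip2.L and pgat.L. These were 22.2% and 33.3%, where 31.9% of all tested genes were called higher and 28.9% lower. pgat.L was at 7.98 and 5.31 CPM at stage 9 and at 1.57 and 1.86 CPM at stage 12.5. The rise of the sum is thus not shared by most of its genes. None of the 9 was at 0 in any library except nanos1.L in stage 12.5 replicate A. The part of germ cells in the values of these genes was not tested.

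Trim36 is a ubiquitin ligase whose maternal RNA lies at the vegetal pole and which in Xenopus acts on the microtubules that move dorsal determinants after fertilization. trim36.S (gene7240) was at 10.9 and 12.4 CPM at stage 9, at 21.9 and 17.4 at stage 10.5, at 24.1 and 18.8 at stage 11.5, and at 24.1 and 23.8 at stage 12.5. trim36.L (gene10477) was at 11.9 and 10.5 CPM at stage 9, at 20.2 and 12.2 at stage 10.5, at 18.1 and 10.6 at stage 11.5, and at 21.5 and 11.4 at stage 12.5. For trim36.S all later libraries were above stage 9, whereas trim36.L was up only in replicate A and stayed between 10.5 and 12.2 CPM in replicate B. trim36.S rose by 0.76 ± 0.21 on the log2 scale to stage 10.5 and by 1.04 ± 0.21, 2.06-fold, to stage 12.5, with edgeR adjusted p = 0.019 and 0.0035. The first of these was 0.67, 0.85 and 0.57 without stage 9 replicate A, stage 9 replicate B or stage 10.5 replicate A, with edgeR adjusted p = 0.1, 0.053 and 0.14. The change of trim36.L to stage 12.5 was 0.55 ± 0.40, with edgeR adjusted p = 0.27.

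**Figure D2:**
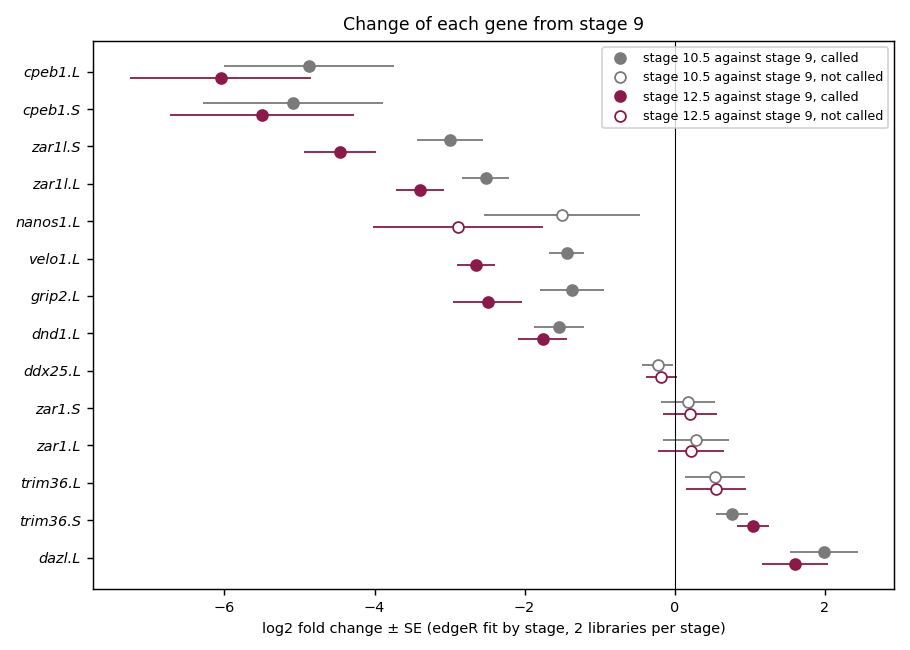
Fitted log2 fold change from stage 9 to stage 10.5 (grey) and to stage 12.5 (red) with its standard error, for each gene, ordered by the later change. Filled points passed edgeR's quasi-likelihood test at an adjusted p under 0.05 and open points did not. The points run from -6.05 for cpeb1.L to 1.60 for dazl.L at stage 12.5.

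Ordered by the change from stage 9 to 12.5, the genes ran from cpeb1.L and cpeb1.S through zar1l.S, zar1l.L, nanos1.L, velo1.L, grip2.L and dnd1.L to ddx25.L, zar1.S, zar1.L and trim36.L, and then to the risen trim36.S and dazl.L. The step from dnd1.L to ddx25.L was 1.58 ± 0.39 on the log2 scale, that from zar1l.S to zar1l.L 1.07 ± 0.58 and that from grip2.L to dnd1.L 0.73 ± 0.56, each with the combined standard error of both genes. That error treats both genes as independent, although they were measured in the same 8 libraries. The differences between cpeb1.L and cpeb1.S, 0.55 ± 1.72, between cpeb1.S and zar1l.S, 1.04 ± 1.31, between zar1l.L and nanos1.L, 0.50 ± 1.18, between nanos1.L and velo1.L, 0.24 ± 1.16, and between velo1.L and grip2.L, 0.16 ± 0.52, did not exceed that error. ddx25.L, zar1.S, zar1.L and trim36.L differed from their neighbours by 0.38 ± 0.42, 0.01 ± 0.57 and 0.33 ± 0.59, also within the error. The risen genes trim36.S and dazl.L were 0.55 ± 0.49 apart, and trim36.L lay 0.49 ± 0.45 below trim36.S. These differences between neighbours were not tested. For L and S copies the ratio within each library, described below, keeps the pairing. With 1 CPM added, the log2 ratio of L to S of cpeb1 changed by -0.58 ± 0.29 from stage 9 to 12.5. That of zar1l changed by 0.50 ± 0.17, that of zar1 by -0.05 ± 0.39 and that of trim36 by -0.53 ± 0.32.

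For each of the 7 genes called lower, the fitted log2 fall to stage 10.5 was larger than that from stage 10.5 to 12.5. The parts were nearly equal for velo1.L, -1.44 and -1.21, and for grip2.L, -1.37 and -1.12. From stage 10.5 to 11.5, 0 of the 14 genes were called, as were 0% of all tested genes, and 1 of 14, cpeb1.S, had an unadjusted p under 0.05, with 2131 of 28490 over all genes. Its value there was 2.63 ± 1.08 on the log2 scale, and it rested on stage 11.5 replicate A. From stage 11.5 to 12.5 edgeR again called 0 of 14 and 0% of all tested genes, and 6 of 14, both copies of cpeb1 and zar1l, velo1.L and grip2.L, had an unadjusted p under 0.05, all lower, with 4246 genes in all. At this last step DESeq2 called velo1.L at -0.81, with adjusted p = 0.044, where it called 2.66% of all tested genes lower. Without the filter on low counts edgeR called cpeb1.L and cpeb1.S, which hold the high stage 11.5 replicate A, at -3.26 and -3.05, with adjusted p = 0.012 and 0.022, where 0.777% of the 43361 genes then tested were lower. The authors' deposited tables call 180 and 692 genes at these steps and none of the 14.

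Taken over both later steps, from stage 10.5 to 12.5, velo1.L was the 1 gene of 14 called lower, with 6.93% of all tested genes lower, and the median of the 14 was -0.4 against 0 over all genes. velo1.L was not called when either library of stage 10.5 or of stage 12.5 was left out, with edgeR adjusted p from 0.062 to 0.11 at fold changes from -1.25 to -1.19. With the replicate letter as a block, 3 of 14 were called lower, velo1.L, zar1l.L and zar1l.S, with 13.4% of all tested genes lower. In that fit zar1l.L was at -0.90 with edgeR adjusted p = 0.021, and at -0.86 with 0.1 in the model by stage. zar1l.S was at -1.53 with edgeR adjusted p = 0.015, and at -1.46 with 0.066 in the model by stage. The changes of cpeb1.L, -1.18 ± 1.03, cpeb1.S, -0.41 ± 1.07, dnd1.L, -0.22 ± 0.32, and grip2.L, -1.12 ± 0.45, did not pass the test over these steps, with edgeR adjusted p from 0.14 to 0.85.

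The L and S copies were compared through the log2 ratio of L to S CPM within each library, with 1 CPM added to each, for 4784 pairs of copies that were both tested. From stage 9 to 10.5, 0 of the 4 pairs changed their ratio, where 35.2% of all pairs did (limma, adjusted p under 0.05), and from stage 10.5 to 12.5, 0 of 4, where 7.48% did. In both comparisons limma gave 0 of 4 pairs an unadjusted p under 0.05. From stage 9 to 12.5 zar1l was the only one of the 4 called, where 52.4% of all pairs were. With nothing added, the L to S ratio of zar1l was 1.7 and 1.89 in A and B at stage 9, then 2.63 and 2.34, then 3.28 and 2.66, and lastly 3.23 and 5.17 at stage 12.5. Each library after stage 9 was above both stage 9 libraries, so relative to zar1l.L less of zar1l.S was left. The change was 0.50 ± 0.17 on the log2 scale with limma adjusted p = 0.0496, and it lost its call when any 1 of the 8 libraries was left out, at 0.42 to 0.57 with adjusted p from 0.057 to 0.18. With 5 CPM added, which is above the level of zar1l.S at every stage after stage 9, it was -0.14, and with libraries scaled by size alone 0.44 with limma adjusted p = 0.071.

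The ratio of trim36 passed the test only in the fit with the replicate block or with a library left out. With nothing added it was 1.1 and 0.849 in A and B at stage 9, then 0.918 and 0.701, then 0.75 and 0.563, and lastly 0.891 and 0.477 at stage 12.5. Within each letter every later library was below stage 9, but the letters overlapped. The change to stage 12.5 was -0.53 ± 0.32 with limma adjusted p = 0.207, and with the replicate letter as a block -0.53 ± 0.17 with adjusted p = 0.0317, which made 2 of 4 pairs called where 64.5% of all pairs were. Without stage 12.5 replicate A it was -0.96, with limma adjusted p = 0.045.

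For cpeb1 the ratio was 1.46 and 1.01 in A and B at stage 9, then 1.81 and 0.973, then 0.896 and 0.886, and lastly 0.747 and 0.805 at stage 12.5. It was thus nearly the same in both libraries of stage 11.5, which differed so much in level. The change to stage 12.5 was -0.58 ± 0.29, with limma adjusted p = 0.146. For zar1 the ratio stayed between 0.0484 and 0.164 in the 8 libraries, and its change was -0.05 ± 0.39 with limma adjusted p = 0.922.

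**Figure D3:**
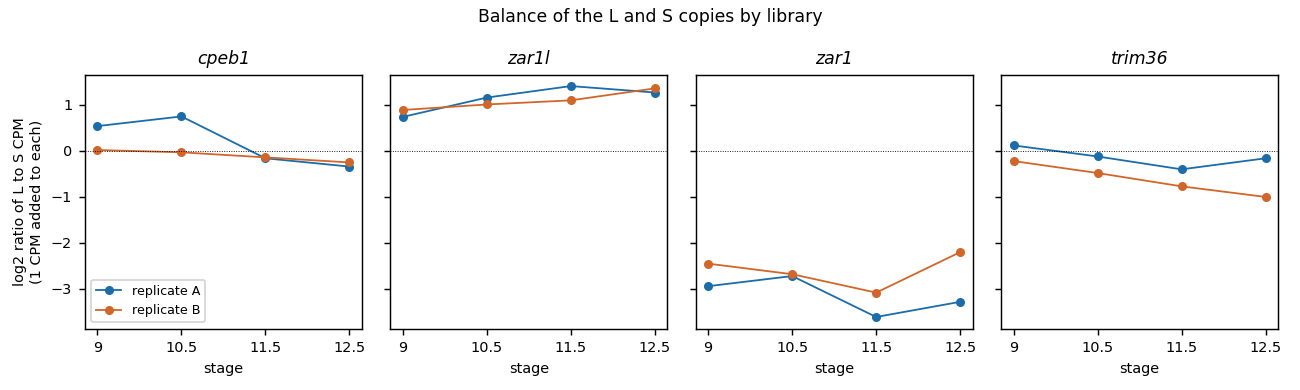
Log2 ratio of L to S CPM, with 1 CPM added to each copy, by stage for the 4 genes with both copies, with a line for each replicate letter. A value of 0 means equal CPM. The zar1l lines go up from 0.74 and 0.89 to 1.27 and 1.36, the trim36 lines go down to -0.16 and -1, and the cpeb1 lines meet at stage 11.5.

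2 genes were lower in the B libraries than in the A libraries. In a model with stage and letter, zar1.S was 0.64 ± 0.11 lower in B on the log2 scale, written as a change of -0.64 with edgeR adjusted p = 0.0094, and trim36.L was at -0.65 ± 0.15 with edgeR adjusted p = 0.032. Both were lower in B in all 4 stages, and they were 2 of 14 where 4.34% of all tested genes were called lower in B. trim36.L lost this call when any 1 library of stages 10.5, 11.5 or 12.5 was left out, with edgeR adjusted p from 0.1 to 0.18. zar1.S lost it without stage 10.5 replicate A or B, with edgeR adjusted p = 0.083 and 0.071.

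Profiles were set side by side by the root mean square difference between centred log2 CPM values over the 8 libraries, where 0 is an identical shape. Within the group, 5 pairs were each other's closest, velo1.L with grip2.L at 0.21, zar1.S with trim36.L at 0.24, zar1.L with ddx25.L at 0.31, cpeb1.L with cpeb1.S at 0.41 and zar1l.L with zar1l.S at 0.45. Of the others, trim36.S was closest to trim36.L at 0.37, dnd1.L and nanos1.L to grip2.L at 0.41 and 0.49, and dazl.L to trim36.S at 0.48. The copies of zar1l were thus further apart than velo1.L and grip2.L, which belong to different protein families. Over all tested genes with a symbol, the 14 themselves left out, the profile nearest to zar1l.L was that of ttc9.L at 0.13, and nearest to zar1l.S was zdhhc9.L at 0.15, with mos.L, the oocyte kinase gene, at 0.23. velo1.L was closest to LOC108716090 and camkk1.S, both at 0.10, and grip2.L to LOC108717856 at 0.10, with mov10l1.L, a helicase gene of the piRNA pathway, at 0.15.

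No profile outside the 14 came as close to cpeb1. Among the nearest to cpeb1.L was LOC108708645 at 0.44, and the nearest of these genes to cpeb1.S was c14orf159.L at 0.59. Both genes were picked by their profile over the same 8 libraries, so a higher level in stage 11.5 replicate A than in B follows from the choice. LOC108708645 was at 60 and 5.91 CPM there and c14orf159.L at 1.82 and 0.179 CPM. For the remaining genes the nearest profiles included sirt6.L for dnd1.L at 0.17, slc25a28.S and gata6.L for dazl.L at 0.24, wipf3-like.L for nanos1.L at 0.23, bbs10.L for ddx25.L at 0.07, u2surp.S for trim36.S at 0.06, foxp4.S for trim36.L at 0.14, acat1.S for zar1.S at 0.11 and lyrm9.L for zar1.L at 0.19. These nearest values are descriptions of 8 libraries and carry no test.

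Lists of genes that work with these proteins held genes that rose and genes that fell from stage 9 to 12.5, a span over which 31.9% of all tested genes were called higher and 28.9% lower. Of 45 tested genes of the CPEB and poly-A machinery and its translational partners, 15 were called higher and 17 lower (edgeR's quasi-likelihood test), 33.3% and 37.8%, both shares not far from those of all genes, with a median of -0.06 on the log2 scale where that of all genes was 0.13. The largest falls were those of patl2.L, an oocyte protein that binds repressed mRNA, at -5.17 ± 0.45, and cpeb3.S, a relative of cpeb1, at -4.92 ± 0.48. The largest rises were those of msi1.S, the neural RNA-binding protein Musashi, at 4.99 ± 0.31, and pabpc4.L, a poly-A binding protein, at 3.55 ± 0.40. The 4 had edgeR adjusted p between 1.6e-05 and 2e-04.

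Of 19 tested gene IDs listed as mRNAs bound by CPEB1 or Zar proteins in oocytes, 11 were called lower and 5 higher. These were 57.9% and 26.3%, with a median of -1.64. The list was set by gene name, and binding was not measured in these data. fbxo43.S, which encodes the meiotic inhibitor Emi2, stood at 103 and 152 CPM at stage 9 and at 0.719 and 1.16 CPM at stage 12.5, a change of -7.06 ± 0.57. btg4.L, an adaptor of the deadenylase that clears maternal mRNA in mice, changed by -6.63 ± 0.54, and both had edgeR adjusted p of 4.2e-05 and 4.3e-05. The largest rises were those of the cell cycle kinase cdk2.L and the spindle motor kif11.L, both at 1.11, with edgeR adjusted p = 0.00096 and 0.025. The mitotic cyclin copies ccnb1.L and ccnb1.S were at -4.90 and -4.79, and the copies tpx2.L and tpx2.S, of a spindle protein, at -0.20 and -0.17 did not pass the test.

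Of 19 tested genes of the germ plasm and the piRNA pathway, 10 were called lower and 2 higher, 52.6% and 10.5%, with a median of -0.58. mov10l1.L changed by -2.58 ± 0.19 and rbpms2.S, the Hermes RNA-binding protein, by -2.53 ± 0.20, close to velo1.L and grip2.L, while ddx4.L rose by 1.19 ± 0.15 and tdrkh.L, a Tudor protein that binds Piwi, by 1.09 ± 0.28. The 4 had edgeR adjusted p between 3.2e-05 and 0.012. The falls of mov10l1.L and rbpms2.S were named because they were the largest of the list. The other copy, rbpms2.L, changed by -0.93 ± 0.22, a smaller fall than those of velo1.L and grip2.L. Of 10 tested mRNAs of the vegetal cortex, 3 were called lower and 4 higher, 30.0% and 40.0%, with a median of -0.87. With the replicate block 5 were lower and 4 higher, where 32.8% of all tested genes were lower and 36.3% higher. In the stage model gdf1.L, the growth factor Vg1, and bicc1.S, an RNA-binding protein, were at -3.24 ± 1.04 and -2.80 ± 0.38, with edgeR adjusted p = 0.028 and 0.00051. In the same list acsl1.S was at 2.92 ± 0.22. gdf1.S, at 0 counts in both libraries of stage 9, was at least 16.5-fold higher at stage 12.5 against a floor of 3 counts per library. It is among the 4 called higher, although it passed the filter through later stages alone. The summed level of the mesoderm and endoderm markers stood at 40.8 and 27.2 CPM at stage 9 and at 10.9 and 17.9 CPM at stage 12.5. Of the 10 markers 2 were called higher, gata4.L and gata4.S, which passed the filter through later stages alone. Another 5 were called lower, among them mix1.L, which had both libraries over the cutoff at stage 9 alone. The part of that summed level in these vegetal genes was not tested.

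Of 60 tested genes of tail shortening and mRNA decay, 28 were called lower and 16 higher, 46.7% and 26.7%, with a median of -0.38. btg3.S and ago1.L changed most to the lower side, by -8.03 ± 0.59 and -4.49 ± 0.36, and the copies of zfp36, a protein that brings mRNAs with AU-rich elements to decay, rose by 4.99 ± 0.20 (S) and 4.08 ± 0.27 (L). The 4 had edgeR adjusted p between 8e-06 and 4.1e-05.

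**Figure D4:**
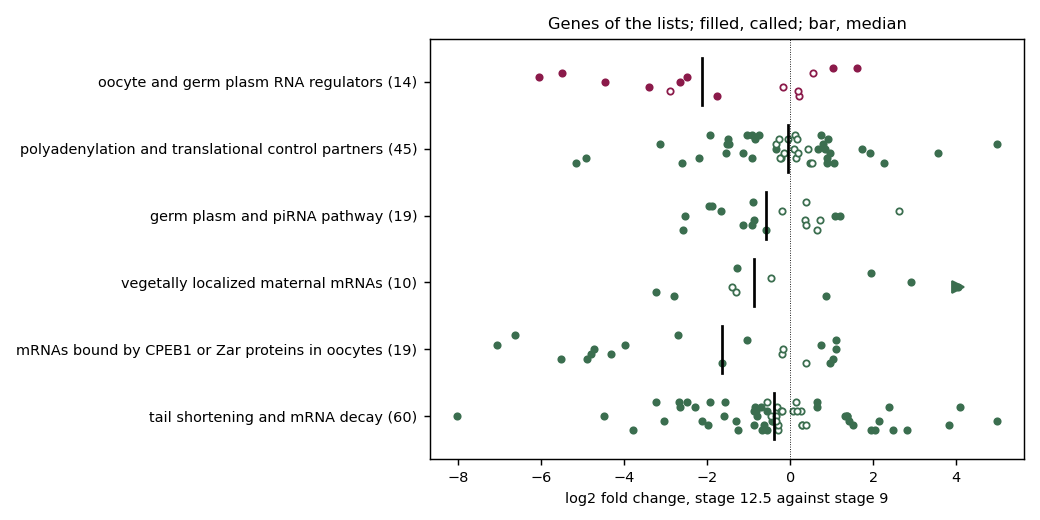
Fitted log2 fold change from stage 9 to 12.5 for the 14 genes (red) and for the tested genes of 5 lists (green), with the number of genes in brackets. Filled points were called by edgeR and open points were not, bars are medians, and the triangle is gdf1.S, drawn at its bound of 16.5-fold because stage 9 held 0 counts. The medians run from -2.13 for the 14 genes, nanos1.L included, to -0.06 for the polyadenylation list.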

How the data were processed

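Messenger RNA of 8 animal cap libraries was measured by poly-A selected, unstranded, paired-end sequencing, per the labels. The authors deposited raw counts per gene ID for each library, without normalization, and for successive stages tables of log2 fold changes and p-values. The submitters' processing notes name FastQC 0.11.5, STAR 2.6.0b-1, featureCounts 1.6.3 and DESeq2 1.22.1. The genome build is not given in the sources used here, so no coordinates are printed.

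The statistics were run in R 4.3.3. Stages were compared with edgeR 4.0.16 (filterByExpr by stage, TMM, quasi-likelihood test, Benjamini-Hochberg adjustment over 28490 genes, stage as the only term, 4 residual degrees of freedom) and limma 3.58.1 for the ratio of copies. Standard errors of fold changes were derived from edgeR's test statistic, and the 95% intervals use them with the 4 residual degrees of freedom. The test itself adds degrees of freedom shared over genes, so the intervals are wider than the test implies. DESeq2 1.42.0, other scalings, no filter and leaving out each library were tried as alternatives. Library pairs of a stage differed far beyond counting noise, with a chi-square per degree of freedom of 24.9 to 48.4. The pairing was checked from the data, since the labels do not explain the letters. Deviations of same-letter libraries from their stage means correlated across genes at all 6 pairs of stages (Pearson r from 0.374 to 0.597). A fit with the replicate block (3 residual degrees of freedom) is therefore given where it changes a call of the 14 genes or their ratios. From stage 9 to 12.5 it called 17 higher and 18 lower in the polyadenylation list. It called 6 and 11 among the mRNAs listed as bound, and 17 and 32 among the decay genes. Of all tested genes it called 36.3% higher and 32.8% lower. Scripts were tested on simulated data. All 14 symbols are in the RefSeq gene table.

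The genes and lists were chosen with earlier results of these data known. Besides the 14 genes, the text names the 3 nearest profiles of a gene or some of them, and in each list the 2 called genes with the largest rise and the 2 with the largest fall from stage 9 to 12.5. The copies of ccnb1 and tpx2, and pgat.L, were chosen after their values were seen.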

Additional observations from a re-analysis of the deposited data

How the results depend on the processing

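From stage 9 to 12.5, the 7 genes called lower kept their call under every alternative run, with 7 to 8 called when a library was left out. The count of 8, also given by the replicate block, by library size alone and with no filter, adds nanos1.L, which passed the filter through stage 9 alone. Leaving out 1 library gave 0 to 2 genes called higher and 3 to 7 lower for stage 10.5 against 9 (0 higher and 4 lower without stage 10.5 replicate A, 3 lower without stage 10.5 replicate B), 1 to 2 higher for stage 12.5 against 9 (1 without stage 9 replicate A or stage 12.5 replicate A), 0 to 1 lower for stage 12.5 against 10.5, 0 to 2 lower in B than in A, and 0 to 1 called ratio of copies for stage 12.5 against 9. For stage 12.5 against 10.5, 1 gene was called lower as reported (6.93% of all genes), 3 by library size alone (13.1%), 3 by DESeq2 (10.2%), 2 with no filter (5.42%) and 3 with the replicate block (13.4%). For stage 12.5 against 11.5 the count of 0 lower became 2 with no filter (0.777% of all genes) and 1 by DESeq2 (2.66%). Of the 4 ratios for stage 12.5 against 9, 1 was called as reported, 2 with the replicate block, 0 with 5 CPM added and 0 by library size alone. Beyond the changes named beside the results, the replicate block changed no other call of the 14 genes. Scaling by library size alone moved the median of all genes for stage 12.5 against 9 from 0.13 to -0.19. With it zar1.L turned to -0.08, zar1.S to -0.14 and the zar1 ratio to 0.05, and with 5 CPM added the zar1l ratio was -0.14. With a library left out, zar1.L ranged from -0.22 to 0.65 and zar1.S from -0.19 to 0.53 for stage 10.5 against 9, and zar1.L from -0.1 to 0.46, zar1.S from -0.23 to 0.53 and the zar1 ratio from -0.59 to 0.49 for stage 12.5 against 9. Depth limits nanos1.L, at 38 counts or fewer, most. A stage with 1 library left is assumed to vary like the others. The causes were not tested.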
